A study of Mus musculus with 12 samples.

Results

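The genes examined here are 8 complement components and regulators in the left ventricle of the mouse: C1qa, C1qb, C1qc, C4b, C3, Cfd, Serping1 and C3ar1. They were taken as the rows of the deposited expression table whose NCBI Gene identifiers map to these symbols, which gave 8 of 18079 genes. Expression had been measured by RNA sequencing in 12 male mice, C57BL/6 in the labels and C57BL/6J in the study's methods, with 3 in each of 4 groups that differ in surgery and drug. Aortic banding (AB) narrows the descending aorta and puts a pressure load on the left ventricle, and sham surgery omits the narrowing. Hispidulin, a plant flavone, was given by daily intraperitoneal injection at 20 mg/kg/day from the day ahead of surgery until harvest 4 weeks later, and the other mice received its solvent DMSO. The groups were therefore DMSO+Sham and DMSO+AB, which received solvent, and Hispidulin+Sham and Hispidulin+AB, which received the drug. The labels put the mice at 8 weeks of age at surgery and 12 weeks at harvest, and name no transgene or other genetic change in any group. The comparisons ask whether pressure overload, hispidulin or both together were accompanied by a different level of complement mRNA in heart muscle.

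Complement is a cascade of plasma proteins that tags cells and debris for removal. C1q, built of A, B and C chains, starts the classical pathway, C4 is cleaved next, and all routes meet at C3, whose fragments coat surfaces and give rise to a small peptide that signals through the receptor C3aR. Factor D (Cfd) is the protease of the alternative pathway and C1 inhibitor (Serping1) blocks the C1 proteases. Liver makes most plasma complement, while tissue macrophages are the main source of C1q, and fibroblasts and other resident cells also transcribe several of these genes.

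Values are FPKM, a read count scaled for transcript length and library size, so levels can be set side by side between genes. Differences are on the log2(FPKM + 1) scale from limma over all 12 mice, with 11664 genes tested, and a gene was called at a Benjamini-Hochberg adjusted p under 0.05. All 8 complement genes passed the filter on low values, which asked for 1 FPKM or more in 3 or more mice. No read counts were used, so the depth behind each value is unknown and errors are the spread between mice.

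A library that stood apart affects most of what follows. In DMSO+Sham mouse 3, 4.04% of tested genes lay more than 1 log2 unit from the median of the other mice, against 0.326% to 1.85% in the other 11. That mouse had the highest level of the 12 for 6 of the 8 complement genes, where it was the highest for 22% of all genes tested. The ventricular gene Actc1, cardiac actin, was at 2741 FPKM in it and between 7909 and 11562 in the others. Of the 6 ventricular markers 3 were lowest in that mouse, Actc1, Myl2 (11178 FPKM) and Myl3 (6602), and Tnnt2, Tnni3 and Myh6 were not. Adgre1, which encodes the macrophage marker F4/80, was at 11.1 FPKM against at most 5.65 elsewhere, Fcgr1 at 13.5 against at most 2.09, and the neutrophil gene S100a8 at 21.7 against at most 15.2. The part of these differences in the complement results was not tested, and results are given with and without that mouse where it matters.

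The tissue label was checked against marker lists. The ventricular cardiomyocyte markers, led by Myl2, Actc1 and Myl3, summed to between 36024 and 53162 FPKM per mouse. The atrial gene Myl7 was at 333 FPKM in mouse 3 of Hispidulin+Sham, at 67.5 in mouse 2 of DMSO+AB and at 42.3 in mouse 3 of Hispidulin+AB, and was below 40 in the other 9. Albumin, the defining hepatocyte product, was at 0.53 FPKM or less in every mouse. Fewer cells of a type and less RNA per cell cannot be told apart in such tissue extracts.

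Serping1 had the highest level of the 8 genes, with a mean of 99.9 FPKM over 12 mice, above 95.9% of all 18079 genes. C1qa followed at 81.1, C1qb at 71.5, C1qc at 54.3 and C3 at 50.1 FPKM. C4b at 7.65, C3ar1 at 2.60 and Cfd at 1.22 FPKM formed a much lower tier. The order was nearly the same in each heart. Serping1 exceeded C1qa in 12 of 12 mice, C1qa exceeded C1qb in 11, C1qb exceeded C1qc in 12, C3 exceeded C4b in 12, and C4b exceeded C3ar1 in 12. C1qc and C3 were not separated beyond their spread, with C1qc higher in 8 of 12 mice, and C3ar1 was above Cfd in 10. The coefficient of variation over the 12 mice was smallest for Serping1 (22.7%), C1qc (24.0%) and C1qa (24.4%) and largest for Cfd (82.1%), with C3 at 51.8% and C4b at 52.3%.

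**Figure D1:**
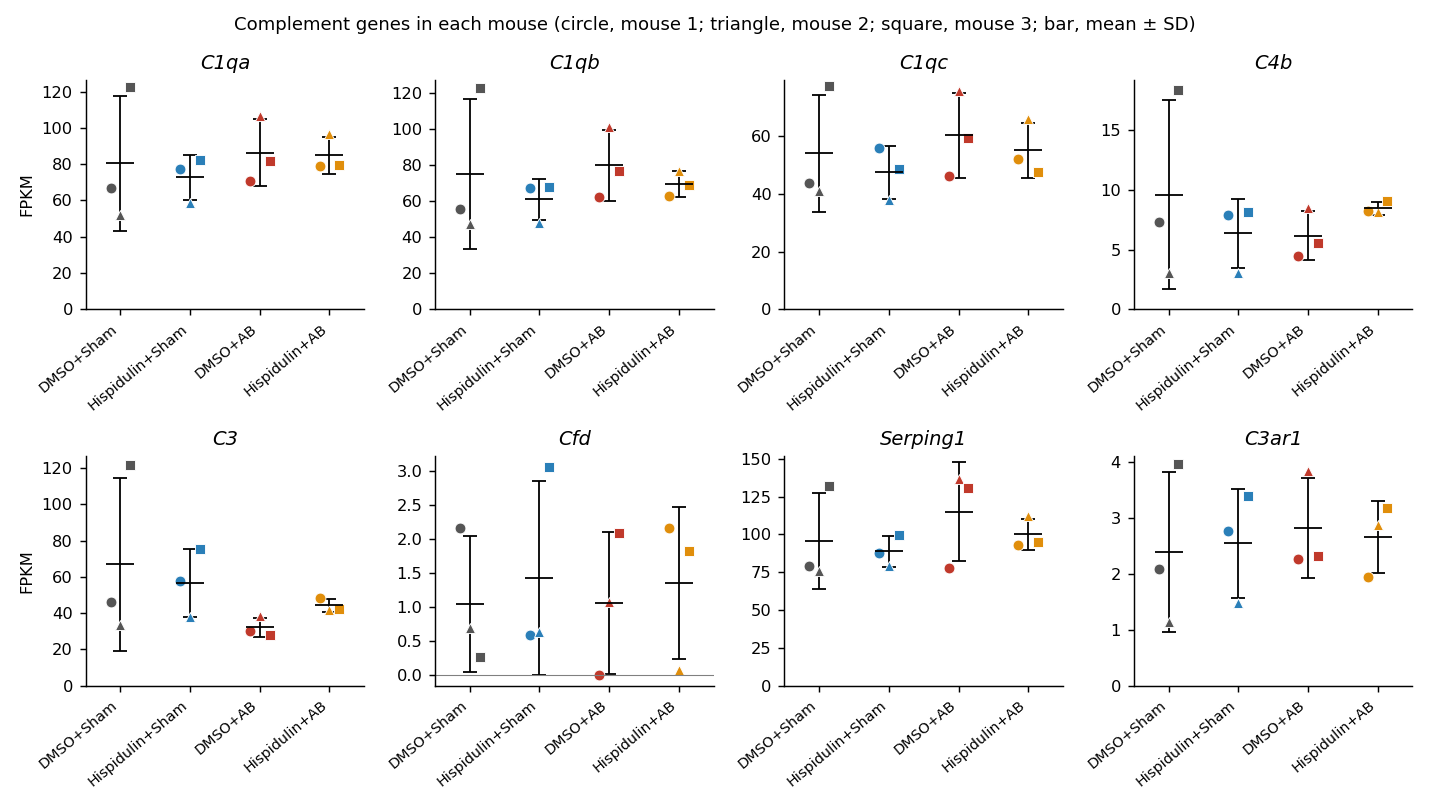
FPKM of the 8 complement genes in each of the 12 mice, by group, with a horizontal bar at the mean and error bars of 1 SD (n = 3). DMSO+Sham mouse 3 (grey square) is the highest point for 6 of the genes, and the 3 Hispidulin+AB mice lie above the 3 DMSO+AB mice for C3.

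The sequences just upstream of the C1qb and C1qc starts are shown because these genes tracked each other closely, and that of C3 because its correlation with them over the 12 mice did not pass. RefSeq promoter windows on GRCm38.p6, from 250 bases before to 50 after the start, were found for 5 of the 8 genes (C1qb, C1qc, C3, Cfd and C3ar1), and the 250 bases before the start are printed 5′ to 3′ on the gene's strand, with capitals for a motif match.
C1qb chr4:136886201-136886450 minus strand: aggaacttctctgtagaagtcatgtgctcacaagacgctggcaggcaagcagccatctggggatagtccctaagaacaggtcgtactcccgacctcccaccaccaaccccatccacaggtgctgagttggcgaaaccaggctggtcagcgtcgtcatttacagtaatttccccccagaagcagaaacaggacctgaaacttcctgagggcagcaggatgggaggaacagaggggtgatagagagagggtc
C1qc chr4:136892915-136893164 minus strand: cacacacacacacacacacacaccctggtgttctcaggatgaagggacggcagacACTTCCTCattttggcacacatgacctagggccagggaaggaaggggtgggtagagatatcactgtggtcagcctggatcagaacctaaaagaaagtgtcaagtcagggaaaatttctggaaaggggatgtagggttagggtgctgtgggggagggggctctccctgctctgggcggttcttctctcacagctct
C3 chr17:57228137-57228386 minus strand: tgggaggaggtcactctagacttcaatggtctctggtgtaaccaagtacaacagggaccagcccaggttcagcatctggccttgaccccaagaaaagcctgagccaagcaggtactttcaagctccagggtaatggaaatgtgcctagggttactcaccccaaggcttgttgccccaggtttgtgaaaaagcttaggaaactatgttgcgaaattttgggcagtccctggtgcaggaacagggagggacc
Each whole window was searched on both strands for GAGGAAGT (PU.1), TTGCGCAA (C/EBP), GGACTTTCC (NF-kB), TTCNNNGAA (STAT) and TATAAA (the core promoter word known as the TATA box), none of which overlapped another in these windows. C1qc held the PU.1 word on the opposite strand (ACTTCCTC on the gene's strand, first base at -195), which occurs in 3.2% of the 32851 promoter windows in the table. C3 held TATAAA at 15 bases after the annotated start, beyond the stretch printed, and C3ar1 held it at -235, against 13.6% of all windows. C1qb and Cfd held none of the 5 words, of which the C/EBP, NF-kB and STAT words occur in 0.183%, 0.344% and 8.3% of all windows. These matches are descriptions of letters and do not show binding.

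The ratios between the 3 chains of C1q varied less from heart to heart than the levels did. The ratio of C1qa to C1qb in FPKM was 1.15 ± 0.0842 (SD, n = 12 mice) with a range from 0.996 to 1.26, and its mean was 1.15 in sham and 1.15 in AB mice. C1qa to C1qc ranged from 1.26 to 1.69 with an SD of 0.124, and C1qb to C1qc was 1.31 ± 0.128 with a range from 1.15 to 1.59. The level of C1q mRNA thus ranged from 51.9 to 123 FPKM for C1qa while the chains moved by much less relative to each other.

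C1qa, the A chain, was at 66.9, 51.9 and 123 FPKM in the DMSO+Sham mice and at 70.6, 107 and 81.6 in the DMSO+AB mice. Every DMSO+AB mouse was above DMSO+Sham 1 and 2 and below DMSO+Sham 3. Hispidulin+Sham mice had 77.6, 58.4 and 82.1 FPKM and Hispidulin+AB mice 78.8, 96.8 and 79.4, so the ranges overlapped there too. C1qb, the B chain, was at 55.4, 47.2 and 123 FPKM in DMSO+Sham and at 62.2, 101 and 76.6 in DMSO+AB. C1qc, the C chain, was at 43.7, 41.1 and 77.4 FPKM in DMSO+Sham and at 46.2, 75.6 and 59.4 in DMSO+AB. The arrangement was that of C1qa for both, with DMSO+Sham 3 above all DMSO+AB mice. Under hispidulin, C1qb was between 47.7 and 68.0 FPKM in sham and between 62.8 and 77.0 in AB mice, and C1qc between 37.8 and 55.9 and between 47.6 and 65.8.

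With all mice in the model, the log2 difference of DMSO+AB from DMSO+Sham was 0.17 for C1qa (95% interval -0.40 to 0.75, limma adjusted p = 0.751), 0.19 for C1qb (adjusted p = 0.761) and 0.19 for C1qc (adjusted p = 0.708). For Hispidulin+AB against Hispidulin+Sham it was 0.23, 0.20 and 0.22. None of these 6 differences passed. Averaged over both drugs, AB minus sham was 0.20 for each chain, with intervals from -0.21 to 0.61 for C1qa, from -0.27 to 0.66 for C1qb and from -0.18 to 0.59 for C1qc.

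DMSO+Sham 3 was singled out after its values were seen, and it lay above every AB mouse for each chain. Without it, the averaged AB difference of the C1q genes was larger and its error smaller. It became 0.38 for C1qa (interval 0.09 to 0.66, limma adjusted p = 0.0930), 0.40 for C1qb (0.11 to 0.70, adjusted p = 0.0841) and 0.35 for C1qc (0.04 to 0.65, adjusted p = 0.147), and still none passed. Leaving out DMSO+Sham 2 in place of that mouse lowered it to 0.070 for C1qa, 0.063 for C1qb and 0.12 for C1qc. A two-sided exact permutation test of the 6 AB against the 5 remaining sham mice gave p = 0.0433 for C1qa, p = 0.0346 for C1qb and p = 0.0563 for C1qc, not adjusted for the 8 genes examined. In that set all 6 AB mice were above the sham median for each of the 3 chains, although the ranges overlapped, as they did for all 8 genes (8.32% of all genes did not overlap). With all 12 mice the same exact test gave p = 0.320, 0.413 and 0.292. The animal numbers in the sample descriptions fall into a 5000s and a 6000s series, with DMSO+Sham 1 outside both, and AB minus sham for C1qa was 0.38 in the first (2 against 3 mice) and -0.20 in the second (4 against 2, with DMSO+Sham 3). C1qb gave 0.44 and -0.30 and C1qc 0.26 and -0.06. Only 1 DMSO+Sham mouse, number 3, is in the 6000s series, and there Hispidulin+AB minus Hispidulin+Sham, which does not use it, was 0.09 for C1qa, 0.03 for C1qb and 0.26 for C1qc (2 mice against 1), while DMSO+AB minus DMSO+Sham was -0.49, -0.63 and -0.38.

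**Figure D2:**
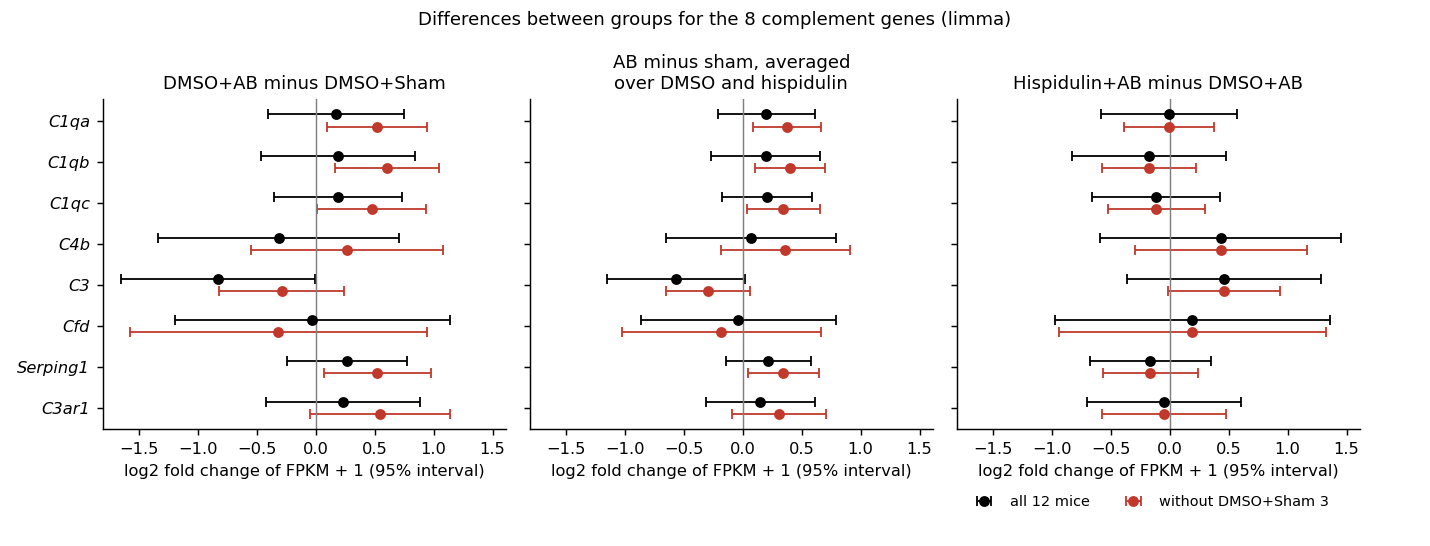
Log2 differences of FPKM + 1 with 95% intervals from limma for the 8 genes in 3 comparisons, with all 12 mice (black) and without DMSO+Sham mouse 3 (red). For C1qa in DMSO+AB against DMSO+Sham the value moves from 0.17 to 0.52, and for C3 from -0.83 to -0.29.

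C4b encodes complement C4, the substrate that activated C1 cleaves. In sham hearts it was at 7.31, 3.07 and 18.4 FPKM with DMSO and 7.90, 3.01 and 8.15 with hispidulin. In AB hearts it was at 4.49, 8.46 and 5.58 FPKM with DMSO and 8.21, 8.11 and 9.08 with hispidulin. The Hispidulin+AB mice were tightly grouped (8.47 ± 0.534, SD, n = 3), while mouse 2 of both sham groups was lowest and DMSO+Sham 3 highest of all 12. The log2 difference of DMSO+AB from DMSO+Sham was -0.31 (SE 0.47, limma adjusted p = 0.746) and turned to 0.27 without DMSO+Sham 3 (adjusted p = 0.760). Hispidulin+AB minus Hispidulin+Sham was 0.46 (adjusted p = 0.915), and the averaged AB difference was 0.07 (adjusted p = 0.925). C4a, its near-identical neighbour, was listed at 0.07 FPKM or less in every mouse, and how the authors' counting split reads between the pair is uncertain.

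C3, the component on which the activation routes converge, was the one member with a lower point estimate under AB in both drug groups and a p under 0.05 before adjustment. It was at 46.0, 33.2 and 122 FPKM in DMSO+Sham and at 30.3, 38.2 and 27.9 in DMSO+AB, where 2 of the 3 AB mice were below every sham mouse and the third lay between DMSO+Sham 2 and 1. It was at 57.7, 37.7 and 75.2 FPKM in Hispidulin+Sham and at 48.5, 42.0 and 42.5 in Hispidulin+AB, where the AB values lay between the lowest and the middle sham mouse. The log2 difference of DMSO+AB from DMSO+Sham was -0.83 (SE 0.38, interval -1.65 to -0.0016, limma adjusted p = 0.245), which did not pass. The unadjusted p from limma was p = 0.0496, and the two-sided exact permutation p was 0.2, where 3 mice against 3 cannot go below 0.1. Across all genes tested 20.4% had an unadjusted p under 0.05 in that comparison and 5.21% passed after adjustment. Averaged over both drugs the difference was -0.56 (SE 0.27, adjusted p = 0.231), and all 6 AB mice were below the sham median of 51.8 FPKM (two-sided exact permutation p = 0.0887).

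The size of the C3 difference rested on DMSO+Sham 3, whose level was 2.90 times the median of the other 11. Without it DMSO+AB minus DMSO+Sham was -0.29 (SE 0.24, limma adjusted p = 0.579) and the averaged AB difference was -0.29 (adjusted p = 0.292). Within the 5000s series AB minus sham was -0.27, and within the 6000s series, which holds DMSO+Sham 3, it was -1.26. The sign was negative in both series and under each alternative setting and omission of 1 mouse that was run.

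Cfd, the alternative pathway protease that fat cells secrete in large amounts as adipsin, was barely present. In sham hearts it was at 2.17, 0.69 and 0.27 FPKM with DMSO and 0.59, 0.63 and 3.07 with hispidulin. In AB hearts it was at 0.00, 1.08 and 2.09 FPKM with DMSO and 2.16, 0.08 and 1.82 with hispidulin. Each group held both high and low mice, and 1 library was listed at 0. The log2 difference of DMSO+AB from DMSO+Sham was -0.03 (SE 0.53, limma adjusted p = 0.983). The adipocyte genes Adipoq and Plin1 were at most 0.40 and 0.22 FPKM in any mouse, whereas Fabp4, which endothelial cells also express, Plin4 and Cidea of the same marker list averaged 1300, 62.9 and 27.5 FPKM.

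Serping1, the inhibitor of the C1 proteases, was at 79.2, 75.7 and 132 FPKM in DMSO+Sham and at 77.6, 137 and 131 in DMSO+AB. The DMSO+AB mice fell into a low one and 2 high ones close to DMSO+Sham 3. It was at 87.8, 79.0 and 99.5 FPKM in Hispidulin+Sham and at 93.2, 112 and 94.8 in Hispidulin+AB, with overlapping ranges. The averaged AB difference was 0.22 (interval -0.14 to 0.58, limma adjusted p = 0.473), and without DMSO+Sham 3 it was 0.35 (interval 0.04 to 0.65, adjusted p = 0.141). Within the series of animal numbers it was 0.46 and -0.16, the second with DMSO+Sham 3.

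C3ar1, the receptor for the C3a peptide, was at 2.08, 1.14 and 3.95 FPKM in sham hearts with DMSO and 2.76, 1.48 and 3.39 with hispidulin. In AB hearts it was at 2.27, 3.84 and 2.32 FPKM with DMSO and 1.94, 2.87 and 3.17 with hispidulin. All 4 ranges overlapped. The averaged AB difference was 0.15 (limma adjusted p = 0.727) and 0.31 without DMSO+Sham 3 (adjusted p = 0.321), with 0.46 and -0.35 within the series of animal numbers.

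Taken as a list, 0 of the 8 genes were called by limma in DMSO+AB against DMSO+Sham, where 5.21% of all tested genes were, and 0 of 8 for AB averaged over both drugs, where 7.39% were. At an unadjusted p under 0.05 the counts were 1 (C3) and 0, against 20.4% and 23.3% of all genes. The median log2 difference of the 8 was 0.18 in DMSO+AB against DMSO+Sham, beside -0.03 for all genes tested, and 0.17 for AB averaged over both drugs, beside -0.03. Without DMSO+Sham 3 these medians were 0.50 and 0.35, beside -0.01 for all genes in both, and 0 of 8 were called. An unadjusted p under 0.05 was then found for C1qa, C1qb, C1qc and Serping1 in both comparisons, 4 of 8 against 19.8% and 25.6% of all genes. For no member did the 3 DMSO+AB mice all lie to one side of the 3 DMSO+Sham mice, against 17.9% of all genes, and for none did the 6 AB mice lie to one side of the 6 sham mice, against 4.96%. For Hispidulin+AB against Hispidulin+Sham 0 members were called and none was free of overlap, against 0% and 20.9% of all genes. At an unadjusted p under 0.05 the count there was 0, against 7.26%, and the members' adjusted p lay between 0.915 and 0.993.

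Hispidulin was compared with DMSO after AB and after sham surgery. In AB hearts 0 of 8 genes were called by limma, as were 0% of all genes, and 0 of 8 had an unadjusted p under 0.05, against 3.1% of all. C3 was the only member whose groups did not overlap, with 48.5, 42.0 and 42.5 FPKM in Hispidulin+AB all above 30.3, 38.2 and 27.9 in DMSO+AB. Such separation, in either direction, was found for 7.88% of all genes, and in this direction for 4.23%. The log2 difference of C3 was 0.46 (interval -0.36 to 1.28, limma adjusted p = 0.996), and the two-sided exact permutation p was 0.1, the smallest that 3 mice against 3 can give. It was 0.59 within the 5000s series (1 mouse against 1) and 0.40 within the 6000s series (2 against 2). Of 43 tested marker genes of other cell types, 4 were likewise higher in each Hispidulin+AB than in each DMSO+AB mouse. They were the neutrophil gene S100a8 (9.33 to 15.2 against 2.13 to 9.23 FPKM), the endothelial genes Vwf (8.57 to 13.1 against 7.08 to 7.66) and Pecam1, and Plin4. The median log2 difference of S100a8 and S100a9 was 1.37, and that of the macrophage marker Lyve1 was 0.73 with overlapping ranges. Lyve1 had the highest difference of the 11 tested macrophage markers, whose median was 0.0088, with 7 above 0 and 4 below. None of the 43 was called, and their part in the C3 difference was not tested.

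C4b was at 0.44 in the same comparison (interval -0.59 to 1.46), with each Hispidulin+AB mouse above the DMSO+AB median and 1 of them above the highest DMSO+AB mouse. The differences were -0.01 for C1qa, -0.17 for C1qb, -0.11 for C1qc, -0.16 for Serping1, -0.05 for C3ar1 and 0.19 for Cfd. The interval for C1qa ran from -0.58 to 0.57, and ranges overlapped for each of these 7 genes.

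In sham hearts the difference of hispidulin from DMSO was -0.34 for C4b, -0.19 for C1qb, -0.14 for C1qc, -0.07 for Serping1, -0.06 for C1qa, -0.06 for C3, 0.11 for C3ar1 and 0.21 for Cfd. None passed in limma (0 of 8, 0% of all genes, and 0 of 8 at an unadjusted p under 0.05 against 2.46%), and no member was free of overlap, against 5.6%. Without DMSO+Sham 3 the sign turned for C1qa (0.28), C1qb (0.23), C1qc (0.14), C3 (0.47), C4b (0.24), Serping1 (0.19) and Cfd (-0.08). Averaged over both operations 0 of 8 members were called, as were 0% of all genes, and 0 had an unadjusted p under 0.05 (2.97% of all), the smallest being 0.413. Without DMSO+Sham 3 the averaged hispidulin difference of C3 was 0.47 (interval 0.11 to 0.82, limma adjusted p = 1.00). For the interaction of hispidulin and AB, the test of whether the AB difference depends on the drug, 0 members were called (0% of all genes) and 0 had an unadjusted p under 0.05 (2.48% of all), the smallest being 0.267. These comparisons share mice with each other, so their values are not independent of one another.

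The rest of the complement system was read from a list of 50 genes by role, the 8 included, of which 46 are in the table and 29 were tested. In the classical pathway C1s1 and C1ra, the proteases that C1q carries, were at a mean of 13.8 and 9.09 FPKM over 12 mice, and C2 averaged 0.48 FPKM. In the lectin pathway Colec11 (13.4 FPKM), Masp1 (7.32) and Fcna (1.47) were tested. Of the alternative pathway, properdin (Cfp) was at 4.75 FPKM and factor B (Cfb) between 0.80 and 3.31 in 11 mice but 26.2 in DMSO+Sham 3. Among terminal components C7 (5.31 FPKM) and C8g (1.60) passed the filter, and C5 (Hc) was at 0.04 FPKM or less. Of the soluble regulators, clusterin (Clu) was at 522 FPKM and vitronectin (Vtn) at 14.2. Membrane regulators were led by Cd59a (61.1 FPKM), Cr1l (39.9) and Cd55 (3.99), and the other receptors by Cd93 (16.6 FPKM), Itgam (3.70, with 18.2 in DMSO+Sham 3 and at most 3.41 in the other 11) and C5ar1 (3.56).

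One gene of this list was called, Cd59a, which encodes a membrane protein that blocks the terminal attack complex. It was at 72.8, 60.7 and 64.4 FPKM in DMSO+Sham and 69.5, 65.9 and 69.2 in Hispidulin+Sham. After AB it was at 58.1, 52.6 and 48.2 FPKM with DMSO and 61.6, 56.7 and 53.5 with hispidulin, so that only Hispidulin+AB 1 exceeded the lowest sham mouse. It fell by 0.28 on the log2 scale for AB averaged over both drugs (SE 0.07, limma adjusted p = 0.0347), 1 call of 29 tested genes against 7.39% of all genes. The call was lost when any of 9 of the 12 mice was left out, each of them other than DMSO+Sham 2, DMSO+Sham 3 and DMSO+AB 1, with log2 differences between -0.31 and -0.25 and adjusted p between 0.0536 and 0.0967. It was also lost under median-of-ratios scaling (adjusted p = 0.0648), with a term for the series of animal numbers (0.0512) and without the 3 libraries of high Myl7 (0.275). Reads shared with its close relative Cd59b make the level uncertain. In each of the other 6 comparisons 0 of the 29 were called. C7 and Cfp came next in that averaged comparison, with differences of -0.51 (adjusted p = 0.0681) and -0.46 (adjusted p = 0.0618), which did not pass. Cfp was at 4.42 to 9.23 FPKM in sham and 3.03 to 4.60 in AB mice, and C7 at 4.88 to 10.5 and 2.89 to 5.16. The highest sham value of both was that of DMSO+Sham 3, and without it the sham mice reached 5.48 for Cfp and 6.50 for C7, with differences of -0.33 (adjusted p = 0.0526) and -0.38 (adjusted p = 0.0759).

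**Figure D3:**
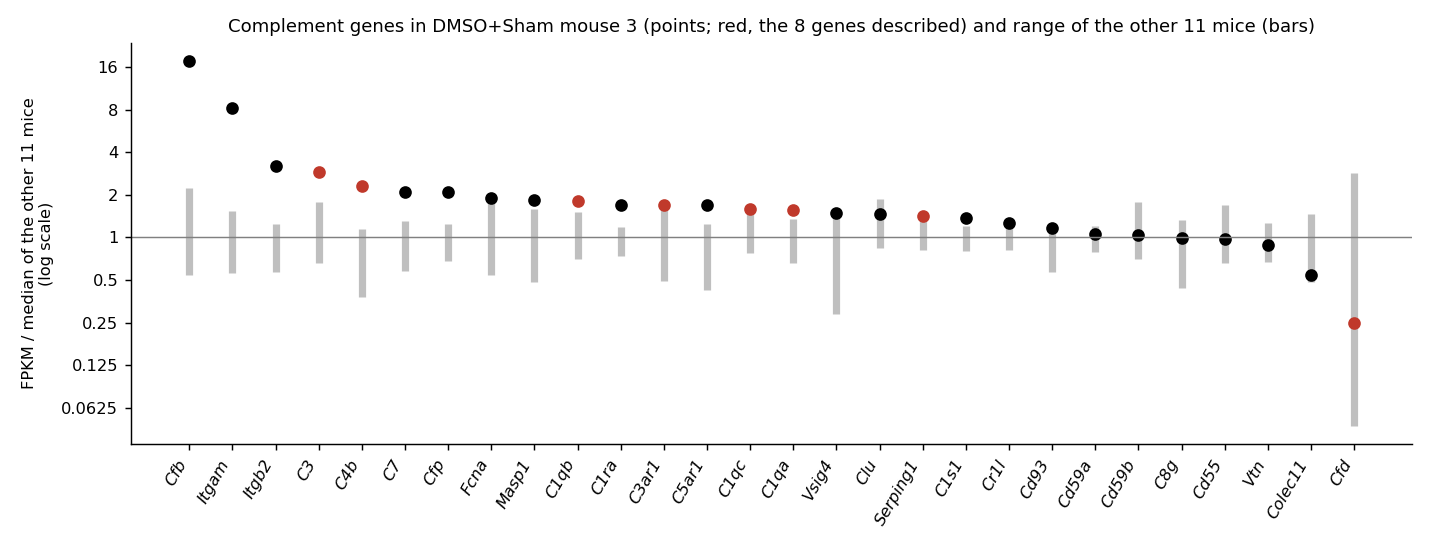
FPKM of 28 of the 29 tested genes of the complement list in DMSO+Sham mouse 3 divided by the median of the other 11 mice (points, log axis), with the range of the other 11 as grey bars cut off at 0.05 FPKM. Cfb stands at 17.7 times, Itgam at 8.17 times and C3 at 2.90 times the median, and the point lies above the bar for 17 of the 28 genes.

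Levels in the same mouse were compared over the 12 mice for the 28 pairs of the 8 genes, with permutation p-values adjusted over the 28 pairs. In 16 pairs both Pearson's r and Spearman's rho had an adjusted p under 0.05. C1qa with C1qb gave r = 0.97 and rho = 0.97 (both permutation p = 1e-05, the smallest that 100000 permutations can give, adjusted p = 9.33e-05 and 0.00028). C1qa with C1qc gave r = 0.94 and rho = 0.91, and C1qb with C1qc r = 0.95 and rho = 0.93. Leaving out the 2 mice farthest from the median, these were r = 0.96, 0.94 and 0.90.

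Serping1 went with the C1q genes (with C1qa r = 0.87, rho = 0.95, adjusted permutation p = 0.00056 and 0.00028, and r = 0.84 without the farthest 2), as did C3ar1 (r = 0.90, rho = 0.90, adjusted permutation p = 0.00056 and 0.000793, and r = 0.82). C4b with C1qa gave r = 0.87 and rho = 0.79, and r = 0.69 without the farthest 2. C3 passed with C4b alone (r = 0.77, rho = 0.66, adjusted permutation p = 0.00828 and 0.0382), and r fell to 0.58 without the farthest 2. C3 with C1qa gave r = 0.55 and rho = 0.38 (adjusted permutation p = 0.105 and 0.340) and r = 0.21 without DMSO+Sham 3. The deviations of C3 from its group means nevertheless gave r = 0.91 with those of C1qa and of C1qb and 0.79 with those of C1qc, and 0.75, 0.70 and 0.51 without DMSO+Sham 3. Cfd passed with none of the other 7, with r between -0.21 and 0.08. All of these share libraries and their composition, so a value high in 1 library for many genes enters each pair.

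**Figure D4:**
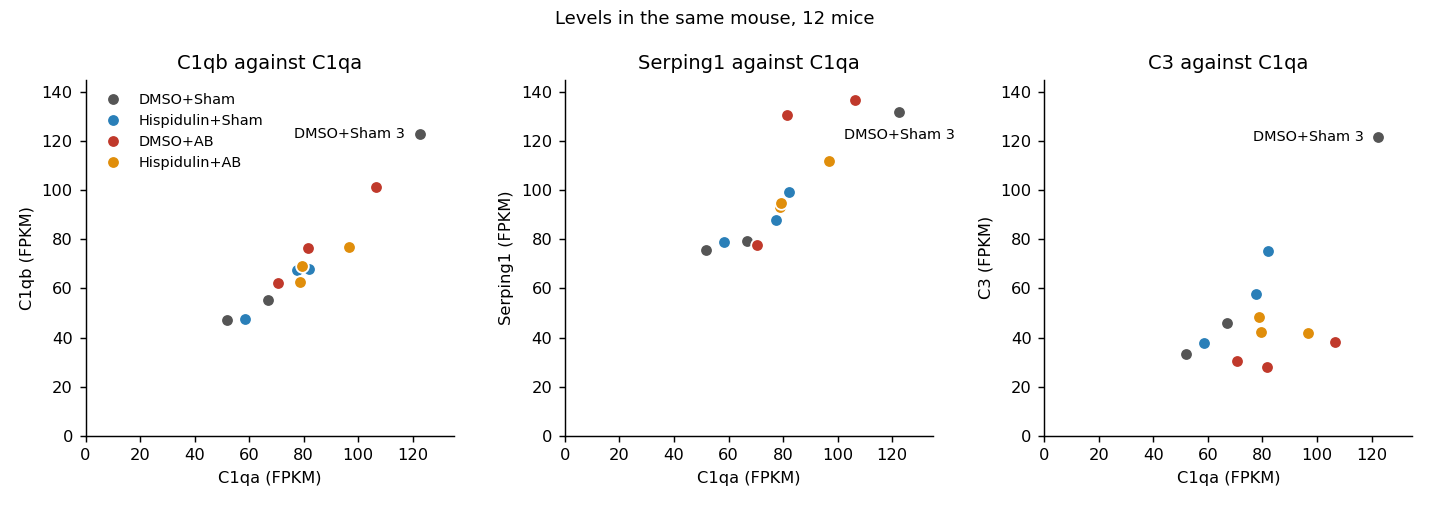
FPKM of C1qb, Serping1 and C3 against C1qa in the same mouse, 12 mice coloured by group. C1qb and Serping1 climb with C1qa (r = 0.97 and 0.87 on the log2 scale), while C3 with C1qa gives r = 0.55, and 0.21 without the labelled mouse.

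Macrophage markers were set beside the complement genes. Of 12 listed genes, led by Lyz2, Lyve1 and Csf1r, 11 were tested, 0 were called in any comparison, and the median log2 difference was -0.03 both in DMSO+AB against DMSO+Sham and for AB averaged over both drugs. It was 0.17 and 0.11 without DMSO+Sham 3, with 9 of the 11 above 0 and 0 called in either. Their summed FPKM per mouse lay between 168 and 287 in sham hearts with DMSO and between 164 and 256 with hispidulin, and after AB between 199 and 283 with DMSO and between 211 and 247 with hispidulin. The mean log2 level of the 11 correlated with C4b (r = 0.92, rho = 0.92, permutation p = 0.00015 and 7e-05, adjusted over the 8 genes to 0.0012 and 0.00032), and r was 0.80 without the farthest 2 mice. For C1qa it gave r = 0.85 and rho = 0.85 (adjusted permutation p = 0.00164 and 0.00315), and r = 0.69. For C3ar1 it gave r = 0.83 and rho = 0.93 (adjusted permutation p = 0.00176 and 0.00032), and r = 0.83. C1qb gave r = 0.83 and rho = 0.82 (adjusted permutation p = 0.00178 and 0.0046), and r = 0.57 without the farthest 2. C1qc gave r = 0.72 and rho = 0.72 (adjusted permutation p = 0.00791 and 0.0139), and r = 0.50. C3 gave r = 0.83 and rho = 0.62 (adjusted permutation p = 0.00322 and 0.0398), and r = 0.56. Serping1 gave r = 0.56 and rho = 0.73 (adjusted permutation p = 0.0617 and 0.0139), and r = 0.26 without the farthest 2. Cfd gave r = -0.21. The part of macrophage RNA in the levels of these genes was not tested.

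Of the other lists in DMSO+AB against DMSO+Sham, 3 of 8 fibroblast markers were called, all higher, as against 5.21% of all genes. They were Col1a1, Col1a2 and Mmp2 (limma adjusted p = 0.0407, 0.0464 and 0.0416), while Dcn and Dpt, the most abundant of the list together with Col1a2, did not pass. Of the adipocyte list, led by Fabp4, Plin4 and Cidea, 3 of 10 genes were tested and 1, Plin4, was called, falling by 0.82 on the log2 scale. Neither the 3 fibroblast genes nor Plin4 were called in that comparison without DMSO+Sham 3. No call was made among 6 endothelial (Pecam1, Cdh5 and Tie1 highest), 3 atrial (Myl4, Myl7 and Sln), 2 tested neutrophil (S100a9 and S100a8) and 4 red cell genes (Hba-a1, Hbb-bs and Hbb-bt highest), nor among the 6 ventricular ones. Their summed levels per mouse ranged from 218 to 271 FPKM for endothelial, from 2.53 to 774 for atrial, from 0.39 to 53.1 for neutrophil and from 1790 to 8324 for red cell genes.

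As a description, the tested genes outside the list whose log2 level was most like each of 5 members over the 12 mice were named. For C1qa they were Alox5ap (r = 0.94), Fcgr3, Ctss, Tyrobp and Dok3 (r = 0.91), and 142 genes exceeded r = 0.8. For C4b they were Tnip2 (r = 0.96), Clec2d, Evi2b, Pik3cd and Wfdc17 (r = 0.92), and for Serping1 Dbnl (r = 0.94), Npc2, Hgsnat, Arpc3 and Srd5a3 (r = 0.93). For C3 they were St7l (r = 0.95), Mgst1, Serinc3, Uvssa and Fah (r = 0.92), and 177 genes exceeded r = 0.8. For Cfd the closest was Ypel4 at r = 0.78, followed by Tctn3, Gm7160, Prdx6 and C130074G19Rik, and 0 genes exceeded r = 0.8. Without DMSO+Sham 3, r was 0.91 for C1qa with Alox5ap, 0.91 for C3 with St7l and 0.93 for C4b with Tnip2.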

How the data were processed

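Left ventricular RNA of 12 mice, selected with oligo-dT, was sequenced as single-end reads of 50 bases on a BGISEQ-500. The submitters' processing notes name HISAT2 2.0.4, Bowtie2 2.2.5, RSEM 1.2.12 and DESeq2 1.4.5, without their roles, and the genome build and annotation are not given in the sources used here. The authors deposited FPKM values per mouse in 1 table of 18079 genes, rounded to 0.01, which sum to between 535235 and 567027 per mouse, and the depth is unknown. Symbols were matched by NCBI Gene identifier in the RefSeq table of GRCm38.p6 for 99.3% of genes.

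FPKM were used as deposited. Genes that reached 1 FPKM in 3 or more mice were tested on log2(FPKM + 1), which understates changes of low genes, with limma 3.58.1 in R 4.3.3, 1 mean per group, eBayes with a trend and Benjamini-Hochberg adjustment over 11664 genes. The script was tested on simulated data. Exact permutation tests and correlations used scipy 1.17.1. The complement genes, the lists and the motifs were chosen with earlier results of these data known. Genes named were the 8 members, called genes and up to 3 of highest mean FPKM per role of the complement list, up to 3 per marker list, and the 5 genes most alike. Fcgr1, Adgre1, Actc1, Myl7, Adipoq, Plin1, Tnnt2, Tnni3, Myh6, Col1a1, Mmp2, Vwf, C2, C4a, C5 and albumin were named after their values were seen. For the complement list by role, Mbl1, Mbl2, C8b and C9 were not analysed here, and the values of 1 gene are not reported here.

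Same-numbered mice carry different animal numbers. Residuals of same-numbered mice correlated by 0.147 to 0.228 in the pairs of Hispidulin+AB and Hispidulin+Sham. In those of Hispidulin+Sham and DMSO+Sham they correlated by 0.126 to 0.330, and in the 2 other comparisons by -0.09 and 0.10 on average. Residuals from group means of 3 mice cannot settle whether the number pairs mice. The main fit held no pairing term, so its p-values and intervals are unpaired, and a replicate block was run only as an alternative. Alternatives tried were 0.1 in place of 1 inside the logarithm, the filter dropped or raised to 5 FPKM, scaling by median of ratios, quantile normalization, eBayes without trend, weighted libraries, a term for the animal number series, a replicate block, fits of the compared libraries alone and the stricter criteria of the study (adjusted p no higher than 0.001 with a log2 fold change of 1 or more in size). Each mouse was also left out in turn and, as a choice made after seeing the data, so were the 3 libraries of high Myl7. Giving further results without DMSO+Sham 3 was likewise a choice made after its values were seen.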

Additional observations from a re-analysis of the deposited data

Results flagged for a closer look

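2 levels lay far from the rest of their set of 6 mice by Dixon's criterion at the 95% level on the log2 scale, which chance alone gives in about 1 of 20 sets. The number of sets searched is not given here, so the 2 levels cannot be weighed against that share. C3 was at 121.56 FPKM in DMSO+Sham 3, the farthest of the 6 DMSO mice, of which the other 5 were between 27.9 and 46.0. C4b was at 3.01 FPKM in Hispidulin+Sham 2, the farthest of the 6 hispidulin mice, of which the other 5 were between 7.90 and 9.08. DMSO+Sham 2 had nearly the same C4b level, 3.07 FPKM. Both sets mix sham and AB mice.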

How the results depend on the processing

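In each of the 165 recounts over 24 alternative settings and omissions, 0 of the 8 members were called in each comparison that could be fitted, the replicate block included, which gave 0 members in all 7 comparisons and changed no call. Of 902 recomputed log2 differences of single members, 839 kept their sign and 0 had an adjusted p under 0.05. Cfd and C3ar1 were not tested with an FPKM of at least 5, and averages and the interaction cannot be fitted with only the libraries compared. Where the sign turned, the cause was not tested. With quantile normalization it turned in Hispidulin+AB minus DMSO+AB for C1qa (0.031). Without the 3 libraries of high Myl7 it turned in Hispidulin+AB minus DMSO+AB for C1qa (0.20), C1qb (0.011), C1qc (0.16), C3ar1 (0.034) and Serping1 (0.019), in Hispidulin+Sham minus DMSO+Sham for C3ar1 (-0.065) and Cfd (-0.24), in averaged AB minus sham for Cfd (0.045), in Hispidulin+AB minus Hispidulin+Sham for Cfd (0.20). With library weights it turned in Hispidulin+Sham minus DMSO+Sham for C1qa (0.0027), C3 (0.045), Cfd (-0.46) and Serping1 (0.054), in Hispidulin+AB minus Hispidulin+Sham for Cfd (0.23). With a term for the series of animal numbers it turned in DMSO+AB minus DMSO+Sham for C1qb (-0.021) and Cfd (0.37), in Hispidulin+AB minus Hispidulin+Sham for C3ar1 (-0.052) and Cfd (0.016), in averaged AB minus sham for C4b (-0.097) and Cfd (0.20). With 1 mouse left out in turn the sign turned within the following ranges. In DMSO+AB minus DMSO+Sham for C1qa from -0.091 to 0.52, C1qb from -0.075 to 0.61, C3ar1 from -0.060 to 0.54, C4b from -0.86 to 0.27 and Cfd from -0.39 to 0.42. In Hispidulin+AB minus DMSO+AB for C1qa from -0.14 to 0.15, C1qb from -0.34 to 0.0080, C1qc from -0.29 to 0.060, C3ar1 from -0.15 to 0.14 and Cfd from -0.25 to 0.68. In Hispidulin+Sham minus DMSO+Sham for C1qa from -0.33 to 0.28, C1qb from -0.45 to 0.23, C1qc from -0.31 to 0.14, C3 from -0.45 to 0.47, C3ar1 from -0.18 to 0.42, C4b from -0.88 to 0.24, Cfd from -0.24 to 0.58 and Serping1 from -0.21 to 0.19. In Hispidulin+AB minus Hispidulin+Sham for C3ar1 from -0.17 to 0.25 and Cfd from -0.33 to 0.44. In averaged AB minus sham for C4b from -0.20 to 0.36 and Cfd from -0.22 to 0.21. The adjusted p of C3 in DMSO+AB against DMSO+Sham ranged from 0.0566 to 0.579 over its alternatives. The count of called genes in the wider complement list ranged from 0 to 4 for AB averaged over both drugs, with 4 under library weights, and from 0 to 1 for DMSO+AB against DMSO+Sham. Over all genes the count of calls by limma at an adjusted p under 0.05 ranged from 11 to 1423 for DMSO+AB against DMSO+Sham, from 73 to 2535 for averaged AB, from 0 to 209 for Hispidulin+AB against Hispidulin+Sham and from 0 to 20 for Hispidulin+AB against DMSO+AB, the last without DMSO+AB 1. The stricter criteria of the study gave 0 calls for DMSO+AB against DMSO+Sham, 9 for averaged AB and 0 for Hispidulin+AB against DMSO+AB. For Hispidulin+AB against DMSO+AB the study did report differing genes, from an analysis of its own that was not repeated here. With 3 mice a group and no read counts, the 95% intervals of several members, C3, C4b and Cfd among them, reached beyond 1 log2 unit in some comparisons.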
